A study of Caenorhabditis elegans with 2 samples.

Results

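The genes described here are the 346 nuclear genes annotated as snoRNA in Ensembl release 115 of the Caenorhabditis elegans genome WBcel235 (ce11), out of 46890 nuclear genes of any type. Each gene was extended by 200 bp to both sides, and a gene counts as having a summit when the summit of a deposited ChIP-seq peak, its highest point, lies in that region. The peaks come from late embryos, males and females together, of strain OP120. The strain carries the mutation unc-119(ed3) on chromosome III and the integrated transgene wgIs120, from which CEH-30 is made with an eGFP tag. All animals carried both alleles, so no untagged or untreated group stands beside them, and the labels do not name the promoter of the transgene. CEH-30 is a BarH-type homeodomain protein known for keeping male-specific sensory neurons alive, and whole embryos hold very few cells of that kind.

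The antibody is labelled ceh-30, while the sample description names the eGFP fusion as its target. The samples were 2 biological replicates of 1 group. The authors deposited relaxed peak lists of 30000 peaks for replicate 1 and 17926 for replicate 2, a relaxed list of 30000 peaks for both replicates pooled, and an optimal list of peaks that were reproducible by their procedure. Its peaks are those that rank first by signal among the pooled ones. The lists hold no read counts, so depth is unknown, and every interval below is an exact 95% interval (Clopper-Pearson) that covers the counting of genes or summits only. The control library is not analysed here. A summit at a gene marks enriched chromatin and is not taken here as proof of a CEH-30 site.

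Small nucleolar RNAs (snoRNAs) pair with ribosomal and spliceosomal RNA and guide its chemical modification, box C/D snoRNAs for 2′-O-methylation and H/ACA snoRNAs for pseudouridylation. In many animals most are cut out of the introns of protein-coding host genes, so that the promoter of the host makes them. Others are transcribed from promoters of their own by RNA polymerase II or III. RNA polymerase III reads tRNA genes from a pair of elements inside the gene, the A box and the B box, which recruit the factor TFIIIC. In budding yeast the same pair stands in front of the snoRNA gene SNR52, which polymerase III transcribes.

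Some snoRNA genes with a strong summit and such a pair that starts in front of the gene are shown first. They do not include T02E1.9, ZK994.7 and ZK265.10, which had the highest signals. All of them carry the pair, so they do not show how often a strong summit comes with it. Each sequence is the RefSeq genome of WBcel235 on the strand of the gene, 5′ to 3′, and runs from 110 bp before the 5′ end through the first 15 bp of the gene. Capitals mark the A box and then the B box where the pair scored at or above a threshold that is given further on. The first set had a summit in the optimal list and lay in an intron of a host gene on the same strand: Y43F8C.22 (V:19643173-19643297, minus strand) in Y43F8C.7, C51F7.3 (V:12303598-12303722, plus strand) in the FERM-domain gene frm-7 and Y38F2AR.14 (IV:2408621-2408745, minus strand) in Y38F2AR.12.
Y43F8C.22: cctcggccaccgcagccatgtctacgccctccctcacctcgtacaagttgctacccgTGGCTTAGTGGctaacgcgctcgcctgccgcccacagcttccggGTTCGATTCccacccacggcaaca
C51F7.3: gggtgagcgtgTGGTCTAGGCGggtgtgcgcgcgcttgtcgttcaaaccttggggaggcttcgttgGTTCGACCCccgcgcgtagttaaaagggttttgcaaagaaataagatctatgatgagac
Y38F2AR.14: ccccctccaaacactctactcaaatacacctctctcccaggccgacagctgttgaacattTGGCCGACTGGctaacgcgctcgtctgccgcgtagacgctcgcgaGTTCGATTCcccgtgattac
The second set had a summit in the optimal list and lay in an intron of a gene on the other strand, so that the transcript of that gene does not contain the snoRNA: T03F7.8 (V:11314148-11314272, plus strand) within cutl-18 and C04G6.12 (II:5105217-5105341, minus strand) within the MAP kinase gene mpk-2.
T03F7.8: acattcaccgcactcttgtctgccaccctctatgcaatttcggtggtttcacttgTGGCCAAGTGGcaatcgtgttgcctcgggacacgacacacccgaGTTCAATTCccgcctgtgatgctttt
C04G6.12: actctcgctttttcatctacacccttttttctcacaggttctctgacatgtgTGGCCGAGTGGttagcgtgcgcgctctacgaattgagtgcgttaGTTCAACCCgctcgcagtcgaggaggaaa
The third set had a summit in the optimal list and stood alone, outside every protein-coding gene: W03C9.9 (II:11960788-11960912, plus strand), Y75B12B.12 (V:15191079-15191203, minus strand) and T06C12.16 (V:15873912-15874036, minus strand).
W03C9.9: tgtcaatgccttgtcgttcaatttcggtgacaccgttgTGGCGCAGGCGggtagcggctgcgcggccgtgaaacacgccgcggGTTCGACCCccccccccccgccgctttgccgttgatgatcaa
Y75B12B.12: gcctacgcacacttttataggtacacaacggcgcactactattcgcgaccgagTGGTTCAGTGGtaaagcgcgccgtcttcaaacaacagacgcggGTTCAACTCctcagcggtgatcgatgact
T06C12.16: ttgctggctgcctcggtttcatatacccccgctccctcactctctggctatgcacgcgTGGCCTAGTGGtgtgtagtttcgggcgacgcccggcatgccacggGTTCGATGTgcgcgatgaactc

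Sequences without the pair are given for comparison. ZK994.7 (V:8500469-8500593, plus strand) lay in an intron of the peroxidasin gene pxn-1 and had the second highest signal of all snoRNA genes, and B0334.12 (II:11484573-11484697, plus strand) lay within the potassium channel gene twk-5 on the other strand. K07C5.18 (V:10350898-10351022, minus strand) lay in an intron of nol-56, the gene of a core protein of box C/D particles, and had no summit in the optimal or the pooled list.
ZK994.7: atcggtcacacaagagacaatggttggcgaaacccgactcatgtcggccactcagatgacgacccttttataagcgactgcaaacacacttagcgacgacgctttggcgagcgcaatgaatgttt
B0334.12: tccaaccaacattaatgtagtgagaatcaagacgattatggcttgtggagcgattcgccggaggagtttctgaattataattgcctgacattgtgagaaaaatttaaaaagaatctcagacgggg
K07C5.18: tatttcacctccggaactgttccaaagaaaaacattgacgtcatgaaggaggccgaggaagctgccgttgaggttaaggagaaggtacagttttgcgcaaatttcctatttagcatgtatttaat
Boxes also stood in front of genes that the optimal list did not reach. T10B9.11 (II:9774820-9774944, minus strand), which stood alone, and T24H7.6 (II:6248607-6248731, plus strand), in an intron of T24H7.2, had the highest pooled signal among snoRNA genes without an optimal summit.
T10B9.11: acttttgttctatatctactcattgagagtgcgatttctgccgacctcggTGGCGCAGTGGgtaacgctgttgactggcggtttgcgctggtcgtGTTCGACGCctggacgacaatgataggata
T24H7.6: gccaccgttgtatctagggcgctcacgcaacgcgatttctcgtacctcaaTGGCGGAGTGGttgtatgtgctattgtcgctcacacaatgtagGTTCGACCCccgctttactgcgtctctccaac

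A strong peak lay at a larger share of snoRNA genes than of any other gene type counted. The optimal list placed a summit at 37 of the 346 snoRNA genes, or 10.7% (interval 7.64% to 14.4%), against 1.35% of all nuclear genes by the same rule. tRNA genes came next with 8.33% (6.27% to 10.8%), an interval that overlaps that of the snoRNA genes. The share was 4.65% for snRNA genes, 3.07% for miRNA genes, 1.79% for protein-coding genes and 0.026% for piRNA genes. Gene length enters the region, so the rule was also applied to 200 bp on both sides of the 5′ end: the count of snoRNA genes was again 37, against 0.928% of nuclear genes.

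Both replicates gave this share on their own. Among as many of the strongest peaks of replicate 1 as the optimal list holds, 32 snoRNA genes had a summit (9.25%), against 1.26% of nuclear genes. In replicate 2 there were 36 (10.4%), against 1.32%. Counted over the extended genes, the relaxed lists, which by design hold background, separated the snoRNA genes much less from other genes. A summit lay at 131 snoRNA genes (37.9%) in the pooled relaxed list, against 33.1% of nuclear genes. In the relaxed list of replicate 1 there were 108 (31.2%), against 33.1%, and in that of replicate 2 there were 105 (30.3%), against 23.9%. Gene length enters these shares too. Within 200 bp of the 5′ end, a pooled relaxed summit lay at 34.7% of snoRNA genes, against 17.1% of protein-coding and 49.0% of tRNA genes. By that rule the shares were 28.0%, 16.5% and 41.3% in replicate 1, and 28.0%, 11.7% and 39.2% in replicate 2. Of the 346 genes, 72 had a summit in the relaxed lists of both replicates, 36 in that of replicate 1 alone, 33 in that of replicate 2 alone, and 186 in none of the 4 lists. All 37 genes of the optimal list had a summit in both replicates. That list holds peaks chosen as reproducible, so this count is not separate support for these genes. Genes extended by 200 bp can share a summit, and 9 members lay within 200 bp of another. Among the 37 this touched C51F7.3 and C51F7.4, which lie next to each other on the plus strand of chromosome V and share 1 summit, so that the 37 genes have 36 distinct summits.

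The peaks at snoRNA genes were concentrated at the top of the ranking. Of the optimal summits, 6.61% (4.67% to 9.03%) fell in the extended snoRNA genes, which cover 182 kb or 0.182% of the nuclear genome. tRNA genes took 8.26% of the optimal summits, and no summit fell at both. Of the remaining 29455 pooled summits, 100 fell at snoRNA genes, or 0.34%. When the pooled list was cut into bins as long as the optimal list, the first bin held 36 summits at snoRNA genes, the second 11, the third 6 and the fourth 5. Over the 54 full bins after the first, the median was 0.367% of summits at snoRNA genes.

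**Figure D1:**
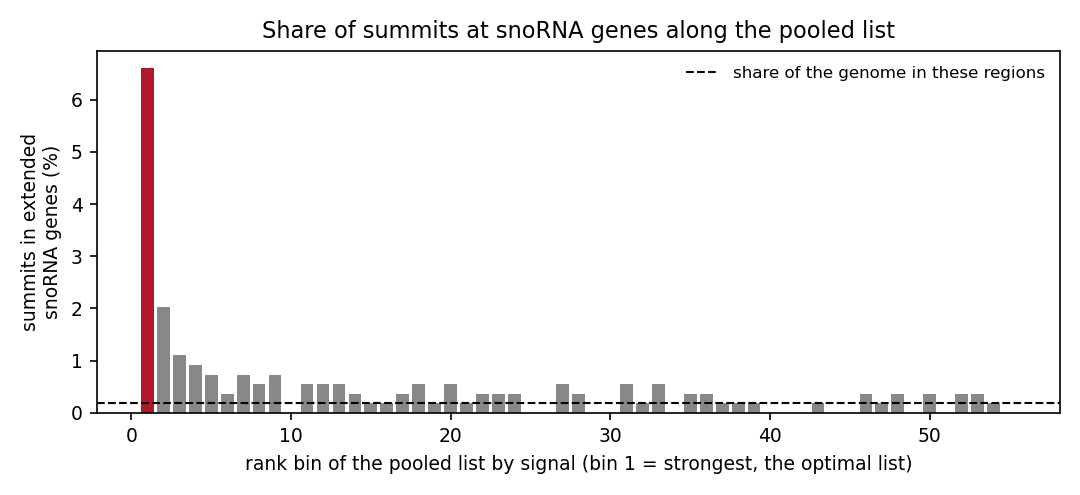
Each bar is the percentage of summits that fell in snoRNA genes extended by 200 bp (vertical axis) in successive bins of the pooled list ranked by signal (horizontal axis), the red bar being the optimal list. The first bin reaches 6.61% and the second 2.02%, and the bars fall from there towards the dashed line, the 0.182% of the genome that these regions cover.

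The signal of the 36 summits was moderate to high within the optimal list. Signal is the peak height as the authors deposited it, in arbitrary units. It ran from 40.1 to 107 at snoRNA genes, with a median of 56.7, against a median of 48.3 and a highest value of 792 at the other optimal summits. Of the 36 summits at snoRNA genes, 24 ranked above the median peak of the optimal list. At tRNA genes the median was 47.96.

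Among the members, T02E1.9 had the highest signal. It is an exon-overlapping snoRNA at I:8224474-8224544, plus strand, over an exon of spe-12, and its peak (I:8224255-8224598) had a pooled signal of 107. It ranked 22 in replicate 1 and 17 in replicate 2, and so stood high in both libraries. ZK994.7 (V:8500579-8500645) followed with a pooled signal of 97.1, ranking 163 in replicate 1 and 10 in replicate 2. ZK265.10 on chromosome I, which stood alone, had a pooled signal of 92.2 and ranks of 30 and 43 in replicates 1 and 2. All 3 were among the stronger peaks of each library, although ZK994.7 stood far higher in replicate 2.

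Y43F8C.22 had a pooled signal of 89.7 and ranked 179 in replicate 1 and 16 in replicate 2. T03F7.8 had 87.3 and ranked 136 and 20 in replicates 1 and 2. The summit shared by C51F7.3 and C51F7.4 had 81.0 and ranked 95 and 42. These peaks, like that of ZK994.7, stood higher in replicate 2 than in replicate 1. The reverse order was seen for T06C12.16, with a pooled signal of 69.1 and ranks of 53 in replicate 1 and 209 in replicate 2, and for F39B2.14, with 67.2 and ranks of 46 and 425. F39B2.14 overlaps an exon of tmem-107, whose product belongs to the transition zone of cilia.

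W03C9.9 had a pooled signal of 70.0 and ranked 135 in replicate 1 and 86 in replicate 2. ZK484.9, within the ABC transporter gene haf-9 on the other strand, had 68.5 and ranked 91 and 137. Y38F2AR.14 had 64.1 and ranked 117 and 102. The ranks of these 3 peaks differed little between the libraries. Y75B12B.12 had 62.9 and differed more, with ranks of 526 in replicate 1 and 57 in replicate 2.

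Over all 36 summits the rank had a median of 275.5 in replicate 1 (22 to 2753) and 193 in replicate 2 (10 to 1429). In replicate 1, 29 of the 36 peaks were among as many of the strongest as the optimal list holds, in replicate 2 there were 30, in both 25 and in neither 2. Differences were compared as percentile ranks, because the 2 relaxed lists differ in length. The largest was that of C27H5.9, within pdl-1 on the other strand, which ranked 2753 in replicate 1 and 203 in replicate 2. Next came T19B4.8, which stood alone and ranked 239 and 1429, and C05D2.15, in an intron of madf-11, which ranked 678 and 1123. These 3 members rest mainly on 1 library each or lie low in both, and the rest of the 36 were closer in percentile rank. By plain rank, B0334.12 (1093 in replicate 1 and 58 in replicate 2) and D1046.6 (850 and 74) differed more than C05D2.15. Both stood much higher in replicate 2.

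**Figure D2:**
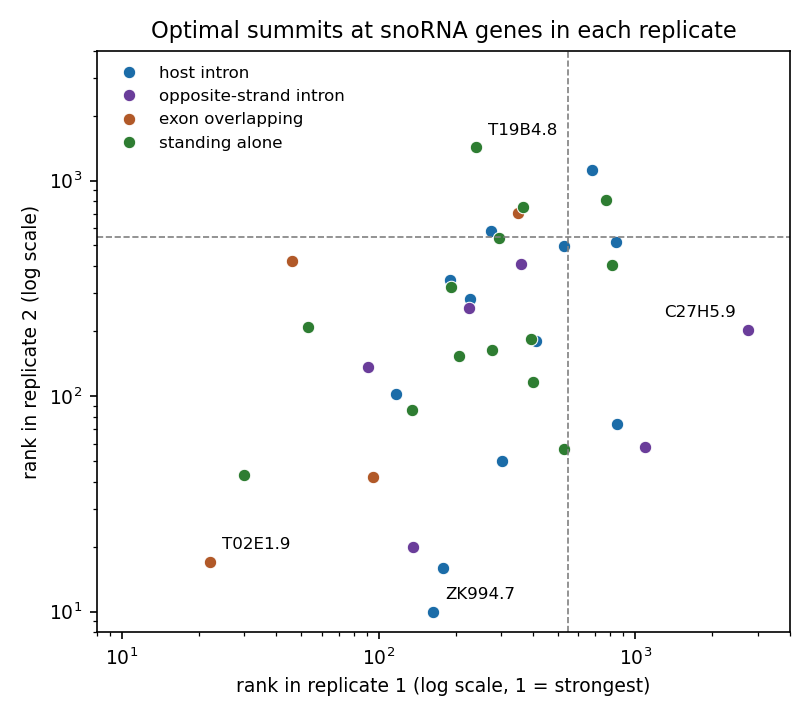
Each point is an optimal summit at a snoRNA gene, placed by the rank of its peak in replicate 1 (horizontal, log scale) and replicate 2 (vertical, log scale), coloured by the position of the gene, with dashed lines at the length of the optimal list. Most points, 25 of 36, lie below both lines, T02E1.9 lies near the lower left corner with ranks of 22 and 17, and C27H5.9 lies far right at rank 2753 of replicate 1.

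A snoRNA gene inside a host intron was about as likely to have a strong summit as one standing alone. The 346 genes were sorted by position: 142 lay wholly inside an intron of a protein-coding gene on the same strand, 27 in an intron of a gene on the opposite strand, 53 overlapped an exon of a protein-coding gene, and 124 stood alone. An optimal summit lay at 13 of the 142 host-intron genes, or 9.15% (4.97% to 15.1%), against 14 of the 124 standing alone, or 11.29% (6.31% to 18.2%). The difference, host intron minus standing alone, was -2.14 percentage points with a Newcombe interval of -9.86 to 5.23, so it is not known in which direction they differ. In replicate 1 the counts were 10 host-intron genes and 14 standing alone, and in replicate 2 they were 12 and 13. Both replicates gave the same order, by less than the interval.

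Opposite-strand intron genes had the highest share, 6 of 27 or 22.2% (8.62% to 42.3%), and exon-overlapping genes the lowest, 4 of 53 or 7.55% (2.09% to 18.2%), with intervals that overlap each other and those of the other classes. In the pooled relaxed list the order of the main classes was clearer. A summit lay at 40 host-intron genes (28.2%, 20.9% to 36.3%), against 59 genes standing alone (47.6%, 38.5% to 56.7%), where 33.1% of all nuclear genes had one. The difference there was -19.4 percentage points (-30.4 to -7.75). In the relaxed lists of single replicates it was smaller, with 36 host-intron genes (25.4%), against 43 standing alone (34.7%), in replicate 1, and 34 (23.9%), against 47 (37.9%), in replicate 2.

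**Figure D3:**
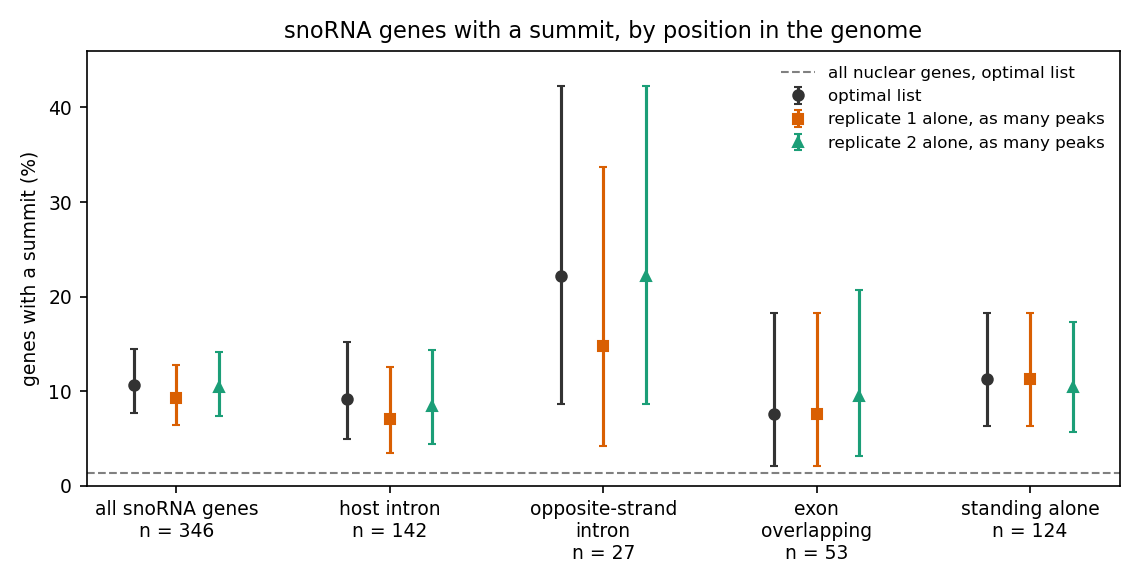
The vertical axis is the percentage of snoRNA genes with a summit, for all of them and for each position class, in the optimal list and in as many of the strongest peaks of each replicate, with exact 95% intervals. Host-intron genes (9.15%) and genes standing alone (11.29%) overlap in every list, and all points lie above the dashed line, the 1.35% of all nuclear genes.

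Host-intron genes were also counted by whether their host held more than 1 snoRNA. The 142 genes lay in 123 hosts, 15 of which held several. None of the 34 members in those 15 hosts had an optimal summit, which with 34 genes allows a share of up to 10.3%, against 13 of the 108 that were the only snoRNA of their host (12.04%, 6.57% to 19.7%). These intervals overlap, and no test was run. The hosts of several include nol-56 with 4 members, rpl-6, a ribosomal protein gene, with 3, and top-2, a topoisomerase gene, with 3, and no member in these 3 hosts had a summit in the pooled list either. The 13 hosts of a bound member were genes of varied roles, among them the condensin gene mix-1, the proteasome gene rpn-8, the phenylalanyl-tRNA synthetase gene fars-1, the synaptic gene unc-41 and the channel gene cng-3. No optimal summit lay in the promoter window of any of these 13 hosts, from 1000 bp before to 500 bp after the 5′ end. Of all protein-coding genes 2.4% had one, and 13 hosts are too few to tell their count from that share.

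The summits lay just before the snoRNA gene. Distances are from the 5′ end of the gene to the summit, negative upstream. Over the 37 genes with an optimal summit the median was -42 bp, with quartiles of -68 and -12 and a range of -115 to 112. The summit was upstream of the 5′ end in 30 genes, by less than 100 bp in 28 of them, inside the gene in 6 and beyond its 3′ end in 1, B0334.12. The median was -36 bp for host-intron genes, with 10 of 13 upstream, against -53 bp for those standing alone, with 12 of 14 upstream. It was -19 bp for opposite-strand intron genes and -26 bp for exon-overlapping genes. The interval of the median, from the order of the distances, was -81 to 26 bp for host-intron genes and -85 to -12 bp for those standing alone, and no test compared them. The search region extends farther downstream of the 5′ end than upstream, by the length of the gene. At the 97 genes with a weaker pooled summit, the median was 1 bp and 48 summits lay upstream.

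**Figure D4:**
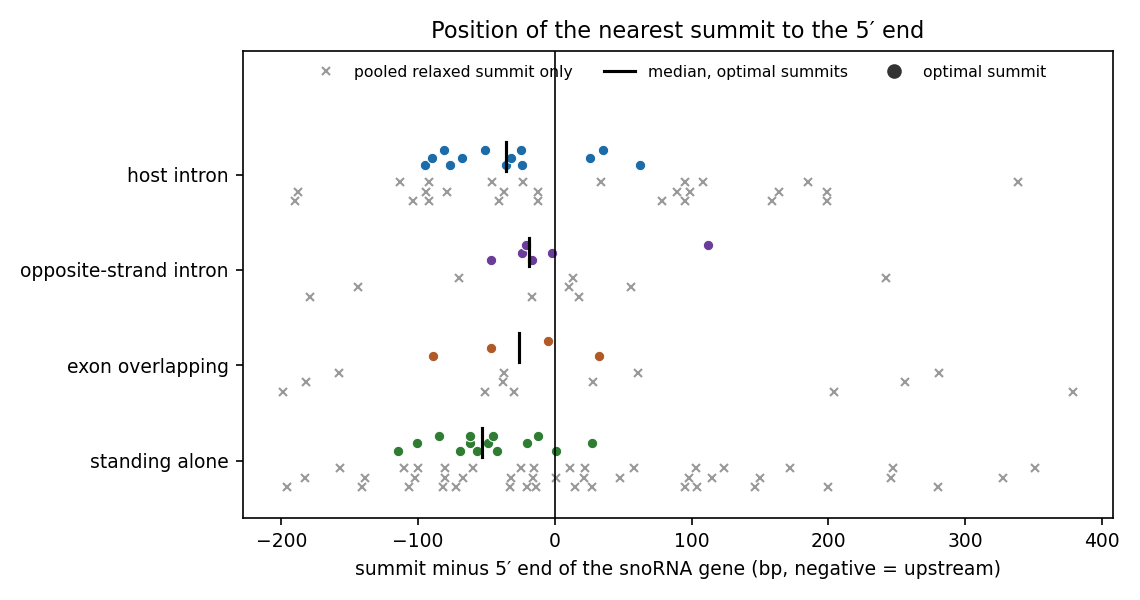
The horizontal axis is the distance from the 5′ end of the snoRNA gene to the nearest summit in bp, negative upstream, for genes with an optimal summit (filled points, coloured by class, black bar at the median) and for genes with a summit in the pooled relaxed list alone (grey crosses). Filled points cluster within 100 bp upstream in each class, with medians of -36 bp for host-intron genes and -53 bp for genes standing alone, and the grey crosses spread over the whole region.

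A and B boxes stood at these positions. They were looked for on the strand of the gene, from 250 bp before to 50 bp after the 5′ end, first as fixed words: the consensus of the A box of tRNA genes, followed after 25 to 90 bp by the B box word GTTCNANNC. A pair of this kind was found at 23 snoRNA genes (6.65%, 4.26% to 9.81%), against 0.262% of all nuclear genes. It was present at 13 of the 37 genes with an optimal summit (35.1%) and at 10 of the 309 without (3.24%). On the opposite strand there was no pair at any of the 346 genes, which allows a share of up to 1.06%, against 0.399% of all nuclear genes. The count on that strand is therefore not read as low. Of the 23 genes with the pair, 13 had an optimal summit (56.5%, 34.5% to 76.8%) and 20 a pooled summit, against 24 of the 323 without the pair (7.43%).

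Words miss a box that differs at 1 base, so a graded score was also used. Base frequencies of the A and B boxes were counted in 563 of the 612 tRNA genes, none of them a snoRNA gene. These 563 were the tRNA genes that held both words at the allowed spacing, so the score is not independent of the words. Each window got the highest sum of log2 odds for an A box followed by a B box. The threshold of 6.62 is the value that 1% of protein-coding genes reach. Of the snoRNA genes 61 reached it (17.6%, 13.8% to 22.1%), against 1.44% of all nuclear genes, 1.55% of snRNA genes and 2.68% of miRNA genes. The median score was -8.38 for snoRNA genes and -12.1 for all nuclear genes.

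The score separated the snoRNA genes with a strong summit from the rest. The 37 genes with an optimal summit had a median score of 20.8, and 28 of them reached the threshold (75.7%, 58.8% to 88.2%). The 309 without had a median of -8.92, and 33 reached it (10.7%, 7.47% to 14.7%). Of the 61 genes with the boxes, 28 had an optimal summit (45.9%, 33.1% to 59.2%), against 9 of the 285 without the boxes (3.16%, 1.45% to 5.91%). With the strongest peaks of replicate 1 alone the counts were 25 of 61, against 7 of 285, and with those of replicate 2 alone 28 of 61, against 8 of 285. In the pooled relaxed list 48 of the 61 had a summit (78.7%), against 83 of the 285 (29.1%). Genes with boxes are described here over genes and not over independent animals, and no test was run on this difference.

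The boxes were found in every position class. Among host-intron genes 25 of 142 had them (17.6%), among opposite-strand intron genes 9 of 27 (33.3%), among exon-overlapping genes 8 of 53 (15.1%) and among those standing alone 19 of 124 (15.3%). Host-intron genes with the boxes had an optimal summit in 11 of 25 cases (44%, 24.4% to 65.1%), against 2 of 117 without (1.71%, 0.208% to 6.04%). Genes standing alone with the boxes had one in 9 of 19 cases (47.4%, 24.4% to 71.1%), against 5 of 105 without (4.76%, 1.56% to 10.8%). For opposite-strand intron genes the counts were 5 of 9, against 1 of 18, and for exon-overlapping genes 3 of 8, against 1 of 45. The intervals of the classes overlapped, both among genes with the boxes and among genes without. None of the 34 members in hosts of several snoRNAs reached the threshold, against 25 of the 108 that were alone in their host (23.1%).

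The spacing of the boxes and their place before the gene were narrow. In the 61 genes the B box started at a median of -14 bp (quartiles -19 and -11), and in 58 of them within 60 bp before the 5′ end. In snoRNA genes under the threshold the best match was at a median of -75 bp and within those 60 bp in 75 of 285. In the protein-coding genes above the threshold it was at a median of -98 bp and within those 60 bp in 39 of 200. The A box started at a median of -58 bp, and the distance between the starts of the 2 boxes had quartiles of 44 and 45 bp. Both boxes ended before the 5′ end in 51 of the 61 genes. The B box started before the gene and ran into it in 8, among them Y38F2AR.14 and T06C12.16 of the sequences printed above, and it started inside the gene in 2. In a tRNA gene both boxes lie inside.

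The optimal summit fell from the start of the A box to the end of the B box in 16 of the 28 genes with the boxes. It lay a median of 19 bp after the start of the A box, with a range of -29 to 127. In Y43F8C.22, which had the highest score of all snoRNA genes (38.1), the summit was at -25 bp, between an A box at -53 and a B box at -9. In T03F7.8 it was at -17 bp, between boxes at -55 and -11. In C04G6.12 it was at -47 bp with boxes at -58 and -14, and in T19B4.8 at -45 bp with boxes at -56 and -12. The summit of W03C9.9, at -101 bp, lay before its A box at -72. C51F7.3 had its boxes farther from its 5′ end, at -99 and -44. They lie within its neighbour C51F7.4, whose own best match shares the A box, at 10 bp inside that gene, but takes another B box, at 39. The search window of C51F7.4 ended 50 bp after its 5′ end and did not reach the B box of C51F7.3. These 2 genes therefore share 1 A box and 1 summit.

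**Figure D5:**
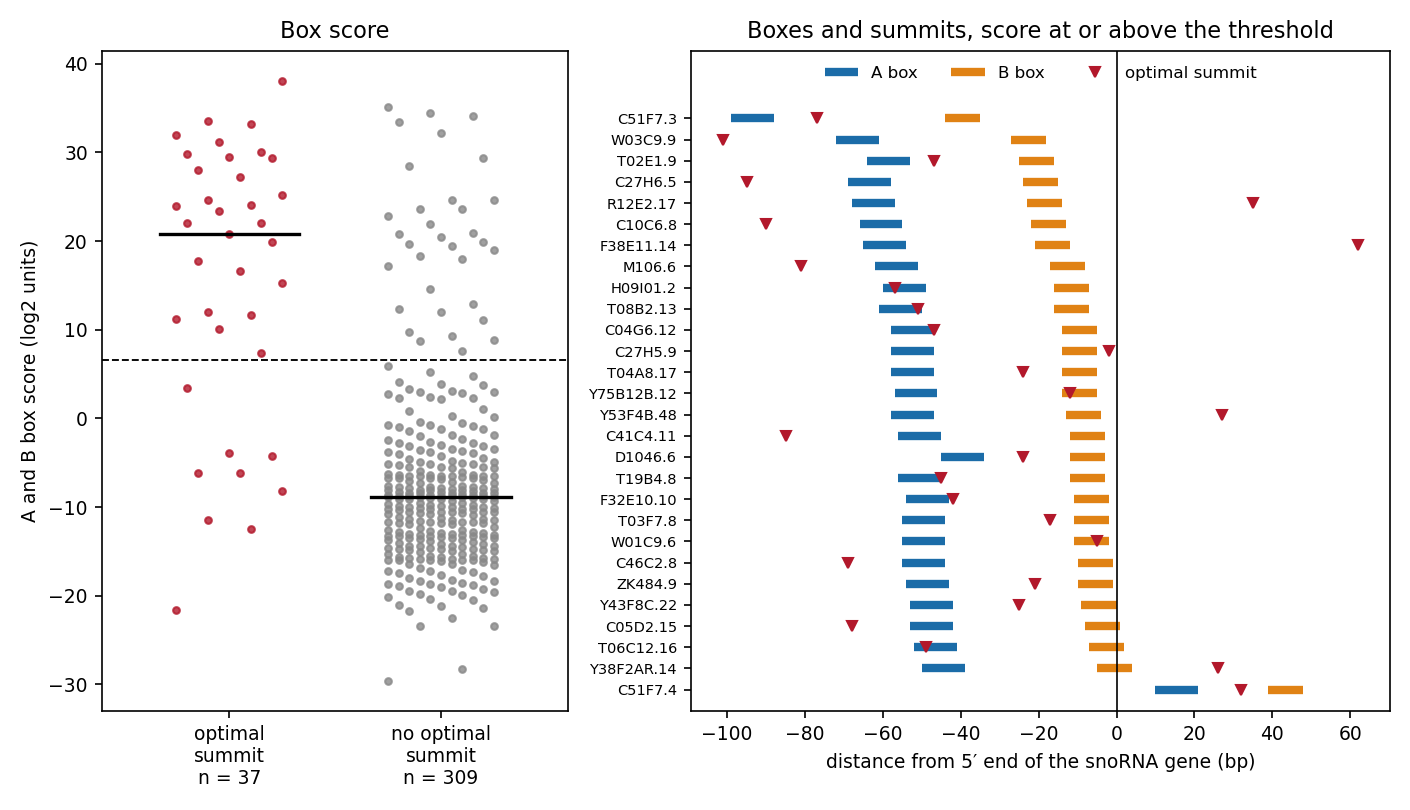
The left panel gives the A and B box score (vertical, log2 units) of each snoRNA gene with and without an optimal summit, with black bars at the medians of 20.8 and -8.92 and a dashed line at the threshold. The right panel places the A box, the B box and the optimal summit by distance from the 5′ end in bp for the 28 genes with both, and both boxes end before the 5′ end in 24 of them, the B box runs into the gene in 3, and in C51F7.4 it starts inside.

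Matches at the threshold near protein-coding genes, and word pairs at other summits, were counted as well. Protein-coding genes over 500 bp from any tRNA or snoRNA gene that reached the threshold had an optimal summit within 200 bp of the 5′ end in 1 of 190 cases (0.526%), against 0.903% of those under the threshold. The threshold is set so that 1% of protein-coding genes reach it. Only 39 of all 200 such matches start within 60 bp before the 5′ end, against 58 of 61 at snoRNA genes. The count therefore cannot tell whether equal boxes elsewhere come with summits. Seen from the summits, a pair of words lay within 100 bp of 13 of the 36 summits at snoRNA genes (36.1%) and of 33 of the 45 at tRNA genes (73.3%), against 2 of the other 464 (0.431%). The word GTTCNANNC lay within 50 bp on either strand at 12 of the 36 (33.3%), against 10 of those 464 (2.16%). The stricter word GTTCGANNC, from 250 bp before to 50 bp after the 5′ end and on either strand, was found at 10 of the 37 bound and 17 of the 309 other snoRNA genes, and at 2.51% of nuclear genes. Other words were counted in the same windows. TATAAA lay within 50 bp of 6 of the 36 summits at snoRNA genes, against 25 of the other 509, GACGCA at 4, against 98, and GCGCCA at 8, against 69. In the window around the 5′ end, GCGCCA was at 13 of the 37 bound snoRNA genes (35.1%) and 41 of the 309 others (13.3%), against 4.79% of nuclear genes. GTTCNANNC was there at 18 of the 37 (48.6%) and 45 of the 309 (14.6%), against 10% of nuclear genes. GACGCA was at 7 and 36, against 6.60%, and TATAAA at 12 and 74, against 37.4%. As a ratio to the share of nuclear genes, the excess at bound snoRNA genes was larger for GCGCCA than for GTTCNANNC. As a difference in percentage points it was larger for GTTCNANNC. The stricter word GTTCGANNC had a larger ratio than GCGCCA. A match to a word or score describes the sequence and does not show that a factor binds it.

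The other 9 genes with an optimal summit had no pair at the threshold: ZK994.7, ZK265.10, F39B2.14, M7.15, B0334.12, C36E8.11, D2021.6, F09G2.14 and C16D9.11. They are named here because of that score, after it was seen. Their signal was as high as that of the genes with boxes, with a median of 56.6, against 56.7. ZK265.10 came closest with a score of 3.48 and a best match with the B box at -20, where the boxes of other members lie. ZK994.7, the second strongest of all, had a score of -12.4 and its summit at -32 bp. C16D9.11, in an intron of rol-3, had the lowest score of the 9 at -21.6. In F39B2.14 the 5′ end lay 61 bp from that of the protein-coding gene tmem-107, in D2021.6 183 bp from that of sdha-1, a gene of succinate dehydrogenase, in C36E8.11 321 bp from that of tif-1A and in F09G2.14 336 bp from that of F09G2.2.

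The 3 strongest pooled peaks at snoRNA genes just outside the optimal list were at genes with the boxes. T10B9.11 had a pooled signal of 36.9 at rank 629 with a score of 21.0, and T24H7.6 had 36.2 at rank 661 with a score of 35.2. T27A3.9 had 35.7 at rank 684, also with a score above the threshold. In replicates 1 and 2 the summit ranked 686 and 509 at T10B9.11, 7466 and 449 at T24H7.6, and 29932 and 354 at T27A3.9. The pooled peaks of T24H7.6 and T27A3.9 therefore rest mainly on replicate 2. Some genes with high scores had no summit at all. R166.7, in an intron of the kinase gene mnk-1, had a score of 34.1 and Y59E1B.14 on chromosome X one of 33.4, and neither had a summit in any of the 4 lists. These 2 genes were chosen after their values were seen.

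Summits near a snoRNA gene can also lie near the promoter of a neighbour, so neighbouring genes were counted. The 37 genes with an optimal summit lay a median of 1023 bp from the nearest protein-coding 5′ end, against 1547 bp for the 309 without. Within 500 bp of one lay 10 of the 37, against 57 of the 309. The classes differed in this. Among genes standing alone the counts were 6 of 14 with an optimal summit and 15 of 110 without. Among host-intron genes they were 1 of 13 and 35 of 129. None of the 37 lay within 500 bp of a tRNA gene, against 2 of the 309, so this count does not set the 37 apart. Among the 277 snoRNA genes over 500 bp from both, 27 had an optimal summit (9.75%, 6.52% to 13.9%). Of these genes away from neighbours, those with the boxes had one in 22 of 54 cases (40.7%), against 5 of 223 without (2.24%). Of the 36 summits, 13 lay in the promoter window of a protein-coding gene. The share of other optimal summits in such windows is not given here, so this count is not read as high or low. None of the 32-base words within 50 bp of the optimal summits at these 37 genes occurs more than once in the nuclear genome.

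The bound snoRNA genes were short. Their median length was 75 bp (quartiles 70 and 129), against 132 bp (103 and 170) for the others. Box C/D snoRNAs are typically shorter than H/ACA snoRNAs. The words of the boxes in the RNA itself were present in few genes: the C and D words TGATGA and CTGA near the ends marked 14 genes, 3 of them with an optimal summit, and the H/ACA words marked 76, 9 of them with one (11.8%, 5.56% to 21.3%), leaving 256 genes unassigned, 25 of them with one (9.77%, 6.42% to 14.1%). The H/ACA and unassigned shares overlap, and the C/D share of 21.4% (4.66% to 50.8%) rests on too few genes to be set apart. By chromosome, 10 of 55 snoRNA genes had an optimal summit on V, 8 of 59 on IV, 8 of 71 on II, 7 of 74 on I, 3 of 54 on III and 1 of 33 on X.

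The genes of the proteins that work with snoRNAs, or at small RNA promoters, were looked at as a list. It holds 15 genes, among them fib-1, the methyltransferase of box C/D particles, nol-56, nol-58 and snu-13 of the same particles, the pseudouridine synthase gene dkc-1 and nola-3 of H/ACA particles, and snpc-4, tbp-1 and other genes of small RNA promoter factors. An optimal summit lay in the promoter window of 1 of the 15, nol-58, against 2.4% of protein-coding genes. With 15 genes this is no more than a description.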

How the data were processed

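The authors' peak lists for ce11 were used, each peak with its summit offset and a deposited signal value, the authors' own peak height, whose scale depends on the list. The sources used here do not give the peak caller, the aligner or the threshold for reproducible peaks. The lists for ce10 were not used. Gene positions came from Ensembl release 115 and sequence from the RefSeq genome, both of WBcel235. Summits were counted in snoRNA genes extended by 200 bp, and the same rule was applied to all 46890 nuclear genes. With 1 group there was no test between groups and no p-value. The replicates are biological per the labels, and each was also used alone. Named genes were the 12 members of highest signal, the 4 highest of each position class, the 3 with the largest difference in percentile rank between replicates, and the 3 strongest without an optimal summit. Members, lists and words were chosen with earlier results of these data known, and the A and B box searches and the grouping by host were added after the data were seen. Position classes and counting were tested on simulated data. Python 3.11.15 was used with numpy 2.4.6, pandas 2.3.3, scipy 1.17.1 and matplotlib 3.10.9.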

Additional observations from a re-analysis of the deposited data

How the results depend on the processing

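The share of snoRNA genes with an optimal summit was 1.73% without any extension of the genes, 7.23% with the stronger part of the optimal list and 37.9% with all pooled relaxed peaks, and 9.25% to 10.4% with 1 replicate left out. For genes standing alone it was 1.61% without extension and 47.6% with the pooled relaxed peaks, and for host-intron genes 2.11% and 28.2%. The difference, host intron minus standing alone, was -19.4 percentage points with the pooled relaxed peaks. It ran from -4.25 to -2.03 with 1 replicate left out, and was positive, with an interval of -4.99 to 11.8, away from coding 5′ ends and tRNA genes. Without extension only summits inside the gene are left, and the median distance was 14 bp for 2 genes standing alone and 35 bp for 3 host-intron genes. With 1 replicate left out it ran from -57 to -47 bp and from -43 to -30 bp. Among genes with the word pair the share was 33.3% with the B box word alone and 87.0% with the pooled relaxed peaks, and among those without it was 4.33% with the stronger part of the optimal list and 34.4% with the pooled relaxed peaks. Among genes at the score threshold it was 59.3% at a threshold that 0.1% of protein-coding genes reach, 32.8% with the stronger part of the optimal list and 78.7% with the pooled relaxed peaks. Under the threshold it was 6.58% at the stricter threshold and 29.1% with the pooled relaxed peaks. With 1 replicate left out these shares ran from 56.5% to 65.2% with the pair and from 5.88% to 6.50% without, and from 41.0% to 45.9% with the score and from 2.46% to 2.81% without. The box alternatives were chosen after seeing the data. No paired analysis was possible because there is 1 group.

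Depth is unknown, so absence of a summit does not show absence of enrichment. The lists hold no control values, and the labels name a control library that is not analysed here, so whether these sites are also enriched without the tagged protein was not tested. Gene counts treat neighbouring genes as separate.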
